A study of Mus musculus with 8 samples.

Results

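The genes described are 10 that build and start the T-cell receptor (TCR) signal: the CD3 chains Cd3d, Cd3e and Cd3g, the zeta chain Cd247, the coreceptors Cd4, Cd8a and Cd8b1, the surface regulator Cd5, and the kinases Lck and Zap70. They were taken by name from the gene count table, and all 10 belong to the 25066 genes counted in some library, of 52784 genes listed. Bulk RNA sequencing was done on mononuclear cells sorted from whole-body harvests of 1-week-old F1 pups of CD11c-DTR dams (C57BL/6) and BALB/c sires. CD11c-DTR dams carry a diphtheria toxin receptor driven by the CD11c (Itgax) promoter, so diphtheria toxin (DT) removes CD11c-expressing dendritic cells (DC) for a time, and dams of every group were of this strain. Trafficked maternal cells and the pups' own (recipient) cells were sorted from the same pups with antibodies to H2K-b and H2K-d, and the pups of a group were pooled. There were 8 libraries, 1 for each of 2 origins and 4 treatments, and no replicates.

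The 4 treatments were no transplantation (uninjected), intrauterine transplantation (IUT) of maternal-strain cells with DC left intact (DC control mIUT), IUT of paternal-strain cells with DC left intact (DC control pIUT), and IUT of paternal-strain cells after DC depletion (DC-depleted pIUT). Transplanted fetuses received 5000000 bone marrow mononuclear cells into the liver on E14, from C57BL/6 (CD45.1, H2K-b) mice in mIUT and from BALB/c mice in pIUT. DT was given to the dam at 5 ng/g on E13 in the DC-depleted group, and dams not given DT received saline. The uninjected pups came from dams with or without DT, and the labels do not say which entered the pool. Donor cells carry the same H2K-b (mIUT) or H2K-d (pIUT) antigen as the sorts used, and F1 cells carry both, so neither sort by itself separates donor, maternal and recipient cells fully.

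A TCR has no signalling tail of its own. It reaches the surface with the CD3 gamma, delta and epsilon chains and a zeta pair, whose cytoplasmic tyrosine motifs are phosphorylated by LCK and then hold ZAP70, while CD4 or CD8 brings LCK to the complex by binding MHC class II or class I. In the thymus these genes come on in steps: CD3 and Lck are used already by the pre-TCR, both coreceptors are then expressed together, and CD4 or CD8 alone remains on mature cells.

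Promoter sequence is shown for the 3 CD3 genes, because their counts parted although they are neighbours, and for Lck, because its gene count adds transcripts from 2 starts. Cd3g (chr9:44880870-44891735, minus strand), Cd3d (chr9:44893083-44899173, plus strand) and Cd3e (chr9:44910037-44920925, minus strand) lie within 40056 bases in GRCm39, and the starts of Cd3d and Cd3g, which point away from each other, are 1348 bases apart. RefSeq promoter entries (GRCm38.p6) were matched for 8 of the 10 genes, with 11 windows, and each window was placed on GRCm39 by its only exact match. The 250 bases before each start are given 5′ to 3′ on the gene's strand. Capitals mark TGTGGT, the core bound by RUNX factors, AGGAAG, bound by ETS factors, CTTTGA, bound by TCF and LEF factors, AGATAA, bound by factors of the GATA family, and the E-box CAGNTG, searched on both strands, and no 2 of the marked matches overlap in these 5 windows.
Cd3d: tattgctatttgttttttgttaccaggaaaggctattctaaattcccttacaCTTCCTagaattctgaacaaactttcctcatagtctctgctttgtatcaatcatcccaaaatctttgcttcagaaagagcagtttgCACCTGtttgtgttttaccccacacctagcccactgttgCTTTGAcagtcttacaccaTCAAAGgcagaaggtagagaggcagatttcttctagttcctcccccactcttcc
Cd3e: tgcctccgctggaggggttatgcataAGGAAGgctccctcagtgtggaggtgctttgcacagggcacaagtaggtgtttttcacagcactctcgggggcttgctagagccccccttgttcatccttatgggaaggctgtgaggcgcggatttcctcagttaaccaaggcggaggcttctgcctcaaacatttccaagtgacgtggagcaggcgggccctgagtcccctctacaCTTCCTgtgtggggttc
Cd3g: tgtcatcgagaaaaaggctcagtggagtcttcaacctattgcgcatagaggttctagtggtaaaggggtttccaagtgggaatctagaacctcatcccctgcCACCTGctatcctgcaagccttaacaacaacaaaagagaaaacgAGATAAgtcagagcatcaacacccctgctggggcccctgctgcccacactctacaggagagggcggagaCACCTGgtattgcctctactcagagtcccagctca
Lck, upstream start: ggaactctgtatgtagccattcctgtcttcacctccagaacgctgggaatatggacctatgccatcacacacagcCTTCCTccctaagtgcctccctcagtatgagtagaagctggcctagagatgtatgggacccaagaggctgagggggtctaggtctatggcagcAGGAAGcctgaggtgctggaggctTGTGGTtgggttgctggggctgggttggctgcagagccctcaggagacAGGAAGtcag
Lck, downstream start: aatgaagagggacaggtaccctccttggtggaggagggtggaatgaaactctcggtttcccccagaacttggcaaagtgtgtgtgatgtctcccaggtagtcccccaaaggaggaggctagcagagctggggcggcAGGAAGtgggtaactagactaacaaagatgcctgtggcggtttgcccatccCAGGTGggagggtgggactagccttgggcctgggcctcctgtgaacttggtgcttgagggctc

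The Cd3d window (chr9:44892834-44893083) held 2 TCF/LEF matches, 1 ETS match and 1 E-box. The Cd3g window (chr9:44891730-44891979) held 1 GATA match and 2 E-boxes, and the Cd3e window (chr9:44920910-44921159) held 2 ETS matches. The upstream Lck window (chr4:129467435-129467684) held 3 ETS matches and 1 RUNX match, and the downstream window (chr4:129452166-129452415) held 1 ETS match and 1 E-box. Of all 32851 promoter windows of this length, 14% held TGTGGT, 29.5% AGGAAG, 13.8% CTTTGA, 9.99% AGATAA and 44.8% CAGNTG. A match describes letters and not binding.

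Levels are given in CPM, counts relative to the scaled library total, after scaling by the trimmed mean of M-values (TMM), and can be compared between libraries but not between genes. The libraries held 38558603 to 47965130 counts. They differed in completeness. Of the genes at 10 CPM or more in all 7 other libraries, 9.51% were under 1 CPM in the recipient uninjected library and 4.86% in the maternal DC control mIUT library, against 0% to 1.26% in the other 6. A gene at 0 in a library, while genes of the same cells are well counted, therefore stands beside this fact, and the part of incomplete libraries in such zeros was not tested. In bulk RNA, fewer T cells and less RNA per T cell cannot be told apart. With 1 library per group no single comparison was tested, and its 95% intervals are for counting error only. The 4 treatments do pair a maternal with a recipient library of the same pups, and edgeR's quasi-likelihood test with additive origin and treatment terms, chosen after seeing the data, takes their interaction as error. For origin it called 0 of the 10 genes (0% of 16796 genes) at a Benjamini-Hochberg adjusted p under 0.05. At an unadjusted p under 0.05 it called 0 of the 10 as well, beside 1.82% of all genes. For any treatment difference it also called 0 and 0 (0.00595% of all genes adjusted, and 3.84% unadjusted). The unadjusted p of the 10 genes in this edgeR fit ran from 0.143 to 0.841 for origin and from 0.207 to 0.801 for treatment. Treatment differences that run in opposite directions in the 2 origins are error in this fit.

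Summed over the 10 genes, the level was highest in recipient DC control pIUT cells (3828 CPM) and next in maternal uninjected cells (2056 CPM). It was 932 CPM in recipient DC-depleted pIUT cells, 699 CPM in recipient DC control mIUT cells and 532 CPM in recipient uninjected cells. The order of these last 2 turned without TMM scaling, at 0.0482% and 0.0537% of all counts. In the transplanted maternal libraries it was 482 CPM after DC control mIUT, 410 CPM after DC-depleted pIUT and 134 CPM after DC control pIUT. The highest and the lowest library thus came from the same pups, sorted by origin.

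Among the CD3 chains, Cd3e, the chain that pairs with either of the other 2, was at 373 CPM in maternal uninjected cells, 58.3 CPM after mIUT, 24.9 CPM after pIUT and 23.0 CPM after DC-depleted pIUT. In recipient cells Cd3e was at 97.3, 36.1, 382 and 88.4 CPM in the same order of treatments. Cd3e was therefore high in 2 libraries of 8, and these 2 were close to each other. Cd3g, the gamma chain, was at 310, 54.5, 23.9 and 44.3 CPM in maternal cells and at 121, 58.6, 569 and 181 CPM in recipient cells. It followed Cd3e, with recipient DC control pIUT cells again highest. Cd3d, the delta chain, was at 363, 196, 10.4 and 123 CPM in maternal cells and at 35.5, 399, 386 and 77.9 CPM in recipient cells. Unlike its neighbours, it was about as high in recipient DC control mIUT as in pIUT cells, while Cd3e and Cd3g were low after mIUT. Which of the 2 was higher turned with the scaling, since the log2 fold change of Cd3d in pIUT over mIUT cells was -0.05 by TMM and 0.66 by library size alone.

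Cd247 (chr1:165616250-165704846), the zeta chain that carries most of the tyrosine motifs, was at 103, 16.8, 0.0198 and 6.78 CPM in maternal cells and at 9.16, 18.6, 104 and 29.6 CPM in recipient cells. The maternal DC control pIUT value was a single count, in a library with 2999 CD3 counts. The level in recipient DC control pIUT and in maternal uninjected cells could not be separated by counting error. The most counted gene that overlaps Cd247, Pou2f1 on the other strand, had at most 592 counts in any library.

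Cd4 (chr6:124841655-124874758), the coreceptor for MHC class II, was at 95.4 and 44.1 CPM in maternal uninjected and mIUT cells and had no count in either maternal pIUT library. In recipient cells it was at 55.9, 11.6, 51.4 and 10.1 CPM. A count of 0, taken throughout as a limit of 3 counts, allows up to 0.0593 CPM in maternal DC control pIUT cells and 0.0909 CPM in maternal DC-depleted pIUT cells. Cd8a (chr6:71350411-71356157) and Cd8b1 (chr6:71299772-71315087) encode the 2 chains of CD8, the coreceptor for MHC class I, and lie 35323 bases apart. Cd8a was at 65.9, 16.6, 14.8 and 28.5 CPM in maternal cells and at 51.4, 31.2, 268 and 31.3 CPM in recipient cells. Cd8b1, which unlike Cd8a is largely limited to alpha-beta T cells, was at 162, 25.5, 20.2 and 22.6 CPM in maternal cells and at 55.7, 56.0, 226 and 26.6 CPM in recipient cells. Both CD8 genes were thus counted in all 8 libraries, including the 2 where Cd4 was at 0.

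Lck (chr4:129442137-129467434), the kinase that phosphorylates the CD3 and zeta tails, was at 465, 70.6, 33.0 and 159 CPM in maternal cells. In recipient cells it was at 92.8, 83.0, 1706 and 435 CPM. Recipient DC control pIUT cells stood above every other library. Zap70 (chr1:36800837-36821905), the kinase that docks on the phosphorylated tails, was at 54.9, 0.0775, 6.48 and 1.91 CPM in maternal cells and at 0, 3.14, 99.1 and 36.6 CPM in recipient cells. The value after maternal mIUT was 3 counts, and the recipient uninjected library, with 4486 Lck counts, had no Zap70 count. Cd5 (chr19:10694480-10716366), which dampens the TCR signal, was at 62.8, 0, 0 and 1.06 CPM in maternal cells and at 14.2, 1.71, 37.5 and 15.9 CPM in recipient cells. Both zeros were in maternal cells after IUT. Some of the genes are also used outside T cells (Cd5 in B-1 cells, Cd4 and Cd8a in subsets of DC, and Cd247, Lck and Zap70 in NK cells).

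**Figure D1:**
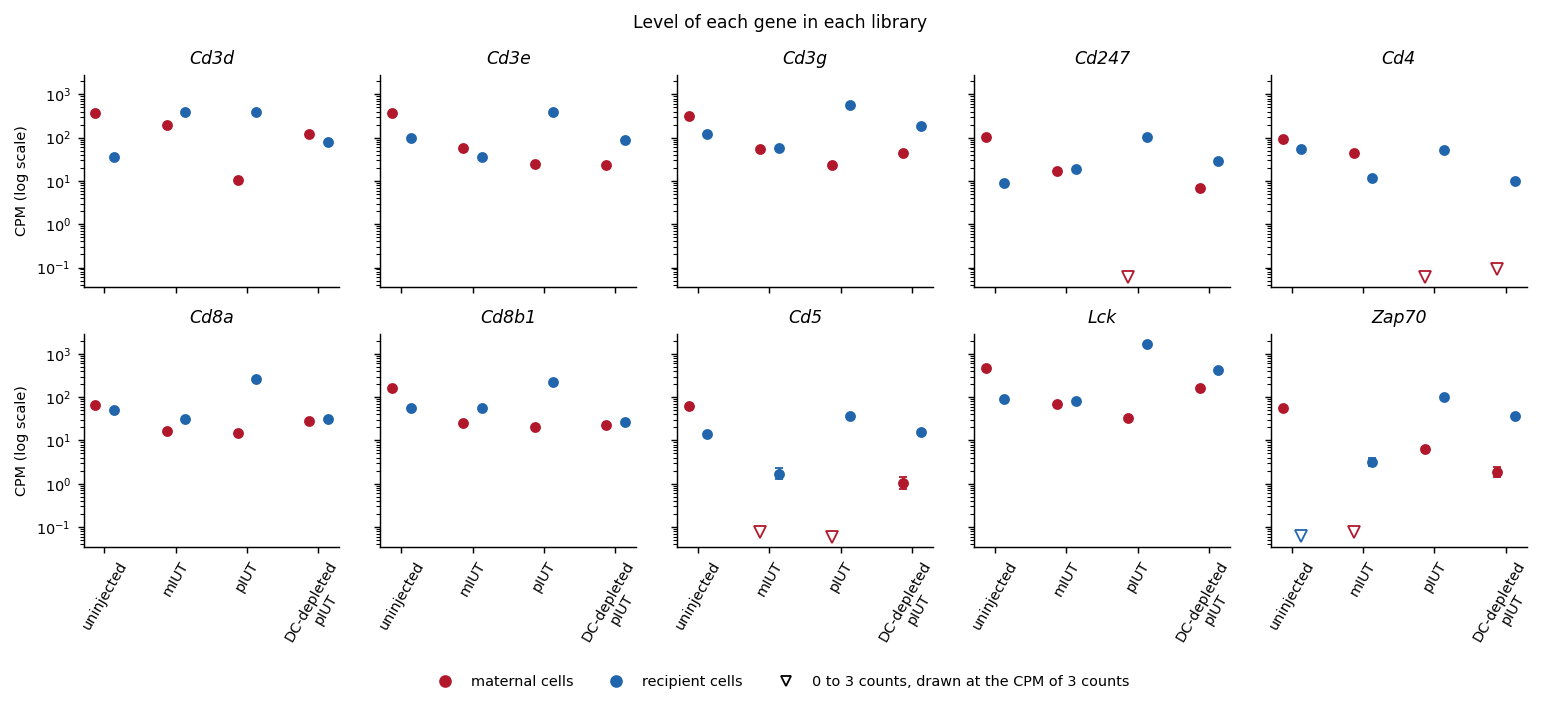
Level of each of the 10 genes in CPM (log axis) in the 8 libraries, by treatment, with maternal cells in red and recipient cells in blue and 95% Poisson intervals where they exceed the point. Open triangles mark libraries with 0 to 3 counts, drawn at the CPM of 3 counts; recipient pIUT and maternal uninjected cells were the 2 highest libraries for Cd3e, Cd3g, Cd247, Cd8a, Cd8b1, Lck, Zap70 and Cd5.

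The pIUT comparison asks what the 2 compartments held after paternal-strain cells when DC were intact. Genes were counted as different when they were at least 2-fold apart after counts of 3 or fewer were set to 3. In maternal cells all 10 genes were lower after DC control pIUT than in uninjected pups (0 higher, 10 lower, with 33.3% of all genes higher and 33.7% lower). Their median log2 fold change was -3.86, against 0.00 over all genes. Cd3d was 34.9-fold lower (95% interval 32.0 to 38.1), Cd3e 15-fold (14.1 to 15.9) and Lck 14.1-fold (13.4 to 14.9). Cd8a was the least lowered, at 4.44-fold (4.09 to 4.82). Cd8b1 was 8.01-fold (7.50 to 8.56) and Zap70 8.46-fold (7.53 to 9.53) lower, which counting error does not separate. With the 0 counts taken as 3, Cd4 was at least 1609-fold lower and Cd5 at least 1059-fold lower, and the ratio for Cd247, from a single count, was 5207 (934 to 205724).

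In recipient cells of the same pups 9 genes were higher after DC control pIUT and none lower, with 52.2% of all genes higher and 20.2% lower. The median of the 10 was 2.31 on the log2 scale and that of all genes 1.13. Lck was 18.4-fold higher (17.8 to 19.0), Cd247 11.4-fold (10.3 to 12.6) and Cd3d 10.9-fold (10.3 to 11.4). Cd8a was 5.22-fold (5.00 to 5.45), Cd3g 4.72-fold (4.58 to 4.85), Cd8b1 4.06-fold (3.89 to 4.23) and Cd3e 3.93-fold (3.80 to 4.06) higher. Cd4 was the exception, at 0.919 times the uninjected level (0.869 to 0.972). Zap70 was at least 1598-fold higher, against a library that had no count of it.

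Compared with DC control mIUT, which does not use the incomplete recipient uninjected library, recipient DC control pIUT cells again had 9 genes higher and none lower (32.6% and 28.3% of all genes), with a median log2 of 3.19 against 0.10. Zap70 was 31.6-fold higher (25.6 to 39.4), Cd5 21.9-fold (16.5 to 29.8), Lck 20.5-fold (19.7 to 21.4) and Cd3e 10.6-fold (9.94 to 11.3). Here Cd3d was the exception, at 0.966 times the mIUT level (0.943 to 0.989). In maternal cells 9 genes could be compared between pIUT and mIUT, with 1 higher (Zap70) and 6 lower (43.5% and 29.1% of all genes, median log2 -1.19 against 0.42). By library size alone 3 were lower, and with at least 10 counts in both libraries 0 were higher, since Zap70 had 3 counts in the maternal mIUT library, the second incomplete one. Cd3d was 18.8-fold lower after pIUT (17.2 to 20.6), whereas Cd8a was 1.12-fold (1.00 to 1.24) and Cd8b1 1.26-fold (1.15 to 1.38) lower. Both pIUT comparisons within an origin share the same pIUT library.

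DC depletion was compared directly between DC-depleted and DC control pIUT. In recipient cells all 10 genes were lower after DC depletion (0 higher, 10 lower, with 24.1% of all genes higher and 14.4% lower), and their median log2 was -2.04, against 0.12 over all genes. Neither library lacked a gene that all the others had. The CD8 genes moved most, with Cd8a 8.56-fold lower (8.14 to 9.01) and Cd8b1 8.49-fold lower (8.04 to 8.98). Cd4 was 5.07-fold lower (4.62 to 5.58), Cd3d 4.95-fold (4.79 to 5.12), Cd3e 4.32-fold (4.19 to 4.46) and Lck 3.92-fold (3.87 to 3.98). The smallest differences were those of Cd247 at 3.52-fold (3.33 to 3.73), Cd3g at 3.14-fold (3.07 to 3.21), Zap70 at 2.71-fold (2.57 to 2.86) and Cd5 at 2.35-fold (2.17 to 2.55) lower. The 2 CD8 genes differed from the other 8 by more than counting error.

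In maternal cells the 9 genes that could be compared went different ways after DC depletion, with 4 higher and 1 lower (37.5% and 36.4% of all genes, median log2 0.94 against 0.10). Cd3d was 11.8-fold higher (10.8 to 12.9) and Lck 4.83-fold higher (4.57 to 5.11). Cd5 was at least 17.9-fold higher, from 35 counts against 0, and the Cd247 ratio was 343 (61.0 to 13613), from 224 counts against 1. Cd3g was 1.85-fold higher (1.71 to 2.00) and Cd8a 1.92-fold higher (1.74 to 2.12), both under 2-fold, while Cd3e was at 0.924 times the control level (0.844 to 1.01). Zap70 went the other way, 3.40-fold lower (2.59 to 4.52). Cd4 was at 0 in both libraries and could not be compared.

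**Figure D2:**
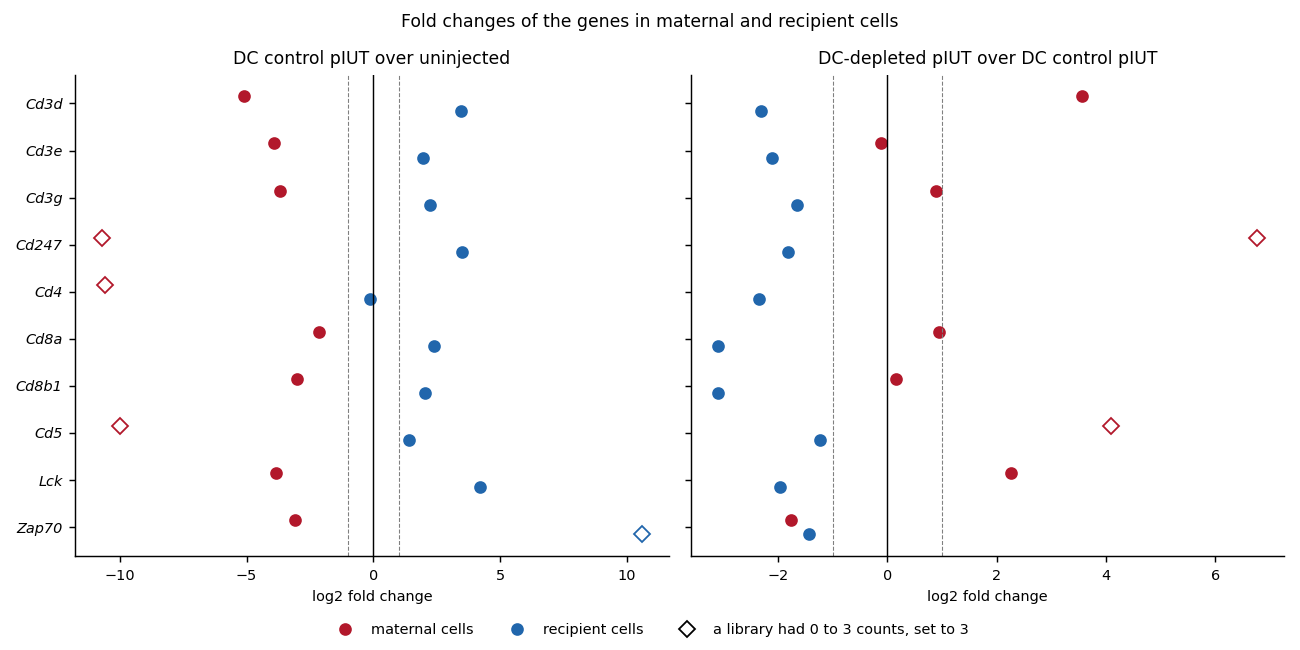
log2 fold changes of the 10 genes, at left for DC control pIUT over uninjected and at right for DC-depleted over DC control pIUT, in maternal cells (red) and recipient cells (blue), with dashed lines at 2-fold. Open diamonds mark genes with 0 to 3 counts in a library, set to 3; at left all 10 maternal values are below 0 and 9 recipient values are above it, and at right all 10 recipient values are below 0.

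Set against uninjected pups, maternal DC-depleted pIUT cells had all 10 genes lower (0 higher, 10 lower, with 35.3% of all genes higher and 34.7% lower, median log2 -3.38 against 0.06). The differences ran from 2.31-fold for Cd8a (2.14 to 2.49), 2.92-fold for Lck (2.83 to 3.01) and 2.96-fold for Cd3d (2.86 to 3.06) to 59.2-fold for Cd5 (42.5 to 85.2) and at least 1050-fold for Cd4. Recipient DC-depleted pIUT cells had 4 genes higher and 2 lower than the recipient uninjected library (53.1% and 18.2% of all genes, median log2 0.38 against 1.20). The 4 were Lck at 4.69-fold (4.54 to 4.84), Cd247 at 3.23-fold (2.91 to 3.60), Cd3d at 2.20-fold (2.08 to 2.32) and Zap70 at least 590-fold. Cd4 was 5.52-fold lower (5.03 to 6.06) and Cd8b1 2.09-fold lower (1.96 to 2.23), an interval that includes 2-fold, and by library size alone 1 gene was lower. The 3 comparisons with uninjected pups within an origin share that library.

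After DC control mIUT, maternal cells had 9 genes lower than uninjected maternal cells and none higher (44.0% and 26.2% of all genes, median log2 -2.65 against -0.60). Cd3d was the gene under 2-fold, 1.86-fold lower (1.81 to 1.91), while Cd3e was 6.40-fold (6.12 to 6.69), Lck 6.59-fold (6.33 to 6.86) and Cd4 2.16-fold (2.04 to 2.29) lower. Cd5 was at least 810-fold lower, and the Zap70 ratio, from 3 counts, was 708 (242 to 3436). Recipient cells after DC control mIUT had 3 genes higher and 4 lower (53.5% and 24.6% of all genes), and the median of the 10 was -0.44 where that of all genes was 1.26. Cd3d was 11.3-fold higher (10.7 to 11.8), Cd247 2.03-fold (1.79 to 2.31) and Zap70 at least 50.6-fold. Cd5 was 8.29-fold (6.20 to 11.3), Cd4 4.80-fold (4.28 to 5.39), Cd3e 2.70-fold (2.52 to 2.89) and Cd3g 2.06-fold (1.95 to 2.17) lower. The intervals of Cd247 and Cd3g included 2-fold.

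Maternal and recipient cells sorted from the same pups were also compared within each treatment. In uninjected pups 8 genes were higher in maternal cells and none lower (47.8% and 23.9% of all genes, median log2 2.04 against 0.78). Cd247 was 11.2-fold (10.2 to 12.4) and Cd3d 10.2-fold (9.75 to 10.8) higher in maternal cells, whereas Cd4 at 1.71-fold (1.63 to 1.80) and Cd8a at 1.28-fold (1.21 to 1.35) stayed under 2-fold. After DC control pIUT the order was turned around, with all 10 genes lower in maternal cells and none higher (35.5% and 26.3% of all genes, median log2 -4.89 against -0.36). Lck was 51.8-fold (49.3 to 54.4), Cd3d 37.0-fold (33.9 to 40.4), Cd3g 23.8-fold (22.4 to 25.2) and Cd8a 18.1-fold (16.8 to 19.5) lower in maternal cells.

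After DC-depleted pIUT 7 genes were lower in maternal than in recipient cells and none higher (40.3% and 22.6% of all genes, median log2 -1.98 against -0.48). Zap70 was 19.2-fold (14.9 to 25.1), Cd5 15-fold (10.7 to 21.7) and Lck 2.73-fold (2.65 to 2.81) lower, and the 3 genes under 2-fold were Cd3d, Cd8a and Cd8b1. Cd3d was 1.58-fold higher in maternal cells (1.51 to 1.65), and Cd8a and Cd8b1 were 1.10-fold (1.02 to 1.19) and 1.18-fold (1.08 to 1.29) lower. After DC control mIUT 1 gene was higher in maternal cells and 4 were lower (20.5% and 45.5% of all genes, median log2 -0.57 against -0.79). The higher gene was Cd4, 3.79-fold (3.37 to 4.27). With DESeq2 size factors 2 genes in place of 4 were lower in this comparison.

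Ratios of counts within a library do not depend on how many of its cells were T cells, or on the scaling between libraries, as long as T cells are the source of both genes. A share of counts is not a share of molecules, since the genes differ in length, so shares are compared between libraries only. Cd3d made 34.7% of the CD3 counts in maternal uninjected cells (95% Clopper-Pearson interval 34.3% to 35.2%), 63.4% after mIUT, 17.6% after pIUT and 64.6% after DC-depleted pIUT. In recipient cells its share was 14%, 80.8%, 28.8% and 22.4%. The recipient mIUT share (80.2% to 81.5%) was the highest and the recipient uninjected share (13.4% to 14.6%) the lowest. Cd3e and Cd3g stayed closer to each other. Cd3g was from 29.6% to 52.2% of CD3 counts in 5 libraries, and 11.9% to 23.3% in the 3 where Cd3d made over 60% (maternal mIUT, maternal DC-depleted pIUT and recipient mIUT). No other annotated gene overlaps Cd3d or Cd3g, and those that overlap Cd3e had at most 51 counts in any library.

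Among the coreceptors, Cd4 made 59.2% of the Cd4 and Cd8a counts in maternal uninjected cells and 72.7% after mIUT (70.8% to 74.5%). It made 0% in both maternal pIUT libraries, where 0 of 751 and 0 of 941 counts allow a share of up to 0.399% and 0.319% (3 counts of the total). In recipient cells its share was 52.1% in uninjected pups, 27.2% after mIUT, 16.1% after pIUT and 24.4% after DC-depleted pIUT. The 3 transplanted recipient libraries were thus below the uninjected library beyond counting error. Within CD8, Cd8b1 made 71.1%, 60.6%, 57.7% and 44.3% of the counts of both CD8 genes in maternal cells and 52.0%, 64.2%, 45.7% and 45.9% in recipient cells.

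Lck stood at 44.5, 22.9, 55.6 and 83.7 counts per 100 CD3 counts in maternal cells and at 36.6, 16.8, 128 and 125 in recipient cells. The 2 recipient pIUT libraries were the highest, and they held nearly the same ratio although their levels differed 3.92-fold. Zap70, set against CD3 in the same way, was at 5.24, 0.0251, 10.9 and 1.00 in maternal cells and at 0, 0.636, 7.42 and 10.5 in recipient cells. Cd247 was at 9.84 in maternal uninjected cells and 7.79 and 8.51 in the recipient pIUT libraries, and at 0.0333 to 5.44 in the other 5.

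**Figure D3:**
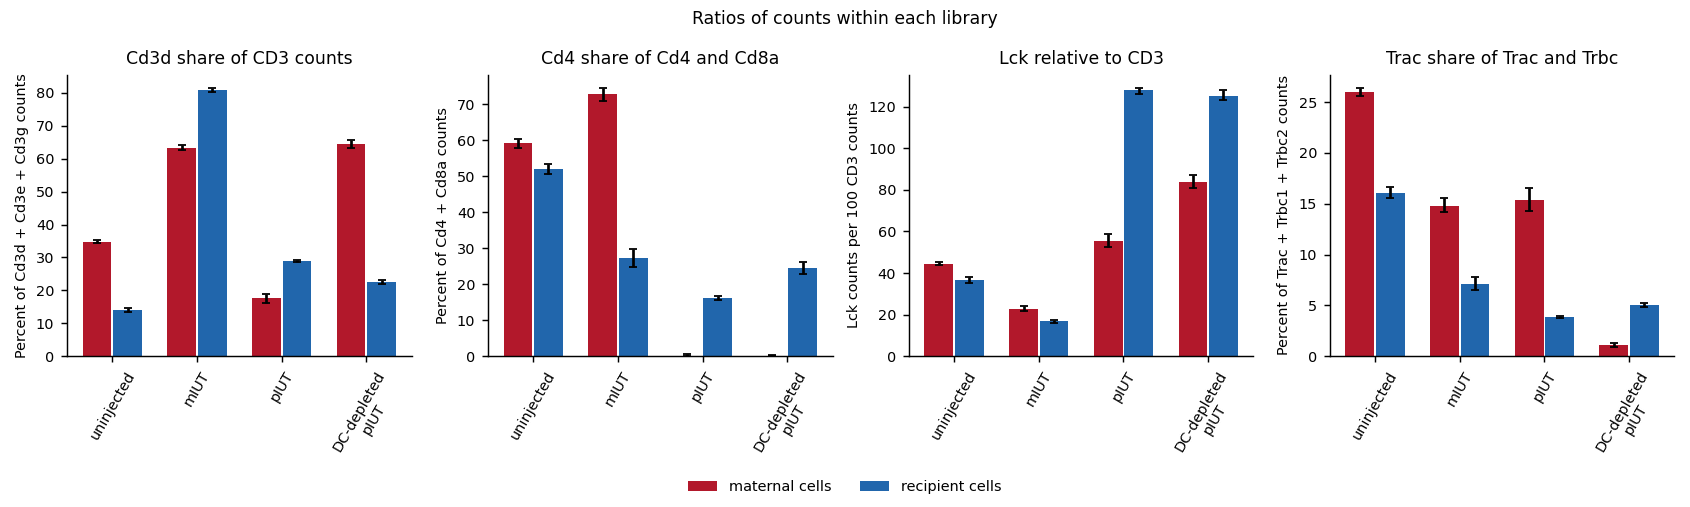
Ratios of counts within each library by treatment, for maternal (red) and recipient (blue) cells with 95% exact intervals for counting error: Cd3d as a percent of CD3 counts, Cd4 as a percent of Cd4 and Cd8a counts, Lck counts per 100 CD3 counts, and Trac as a percent of Trac and Trbc counts. Cd3d reached 80.8% in recipient mIUT cells, Cd4 was at 0% in both maternal pIUT libraries, and Trac was lowest, at 1.11%, in maternal DC-depleted pIUT cells.

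The receptor chains that CD3 carries were counted through their constant-region genes. Trbc1 and Trbc2 are nearly identical in coding sequence, and reads can be split between them, so they are given as a sum beside Trac. Trac made 26% of the Trac and Trbc counts in maternal uninjected cells, 14.8% after mIUT, 15.4% after pIUT and 1.11% after DC-depleted pIUT (0.942% to 1.31%). In recipient cells its share was 16.1%, 7.15%, 3.84% and 5.05%. Maternal DC-depleted pIUT cells had 147 Trac counts against 13045 Trbc counts. The beta locus is rearranged before the alpha locus in the thymus, and the beta chain first pairs with the surrogate chain Ptcra. Ptcra was at 0, 11.6, 0.297 and 14 CPM in maternal cells and at 0.331, 3.94, 71.4 and 14.1 CPM in recipient cells. As a share of the Ptcra and Trac counts it was 0%, 23.4%, 2.29% and 75.9% in maternal cells and 0.527%, 18.9%, 41.2% and 29.7% in recipient cells. The maternal DC-depleted pIUT share (72.3% to 79.2%) was the highest, and the recipient DC control pIUT share (40.1% to 42.3%) came next.

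The gamma-delta constant genes (Trdc and the Trgc genes, summed because the Trgc copies resemble each other) made 3.15%, 2.59%, 0% and 7.20% of all TCR constant counts in maternal cells. In recipient cells they made 8.80%, 10.2%, 12.1% and 31.3%. The recipient DC-depleted pIUT share (30.9% to 31.7%) was the highest. Of the 8 TCR chain genes, 7 stood at least 2-fold higher and 1, Trac, at least 2-fold lower after DC depletion than in the maternal DC control pIUT library, with 37.5% of all genes higher and 36.4% lower. In that control Trdc, Trgc1, Trgc2 and Trgc4 had no count and Ptcra had 15. After DC depletion Trgc4 had 5 counts. In recipient cells the same comparison gave 0 higher and 4 lower (24.1% and 14.4% of all genes), and the summed gamma-delta genes were at 301 CPM after DC depletion and 363 CPM in the control, with Trdc at 83.0 and 152 CPM.

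Other genes of the pathway were given as lists. Of 9 further proximal kinases and phosphatases (among them Fyn, Csk and the phosphatase Ptprc, CD45), 0 were higher and 0 lower by 2-fold after DC depletion than after DC control pIUT in recipient cells, with a median log2 of -0.37. Of 14 adaptors and effectors 0 were higher and 6 lower (median -0.85), of 8 accessory surface genes 0 and 5 (median -1.46) and of 9 T-lineage transcription factors 0 and 6 (median -1.16), beside 24.1% higher and 14.4% lower over all genes. Lat, the scaffold that ZAP70 phosphorylates, was at 327 CPM in recipient DC control pIUT and 51.5 CPM in recipient DC-depleted pIUT cells. Tcf7, a factor of T-cell commitment, was at 706 and 120 CPM, and Ptprc at 227 and 168 CPM. Ptprc, Ptpn6, Lcp2 and Plcg1 are shared by other blood cells.

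In maternal DC-depleted pIUT cells, where Lck was highest among the 3 maternal IUT libraries, the same lists were low against uninjected cells. All 9 kinases and phosphatases were at least 2-fold lower than in maternal uninjected cells (median log2 -4.03), as were 11 of 14 adaptors and effectors (median -2.74), 8 of 8 accessory genes (median -4.26) and 9 of 9 transcription factors (median -4.86). None of these genes was higher, and over all genes 35.3% were higher and 34.7% lower. Against maternal DC control pIUT, 5 of the 9 kinases and phosphatases were higher and 4 lower, as were 8 and 6 of the 14 adaptors and effectors. Of the accessory genes 4 were higher and 1 lower, of 7 compared, and of the transcription factors 4 were higher and 4 lower, of 8 compared. Over all genes 37.5% were higher and 36.4% lower. Ptprc, which all blood leukocytes use, was at 2.63 CPM, against 70.2 CPM in maternal DC control pIUT and 229 CPM in maternal uninjected cells. Ptprc was thus 26.7-fold lower after DC depletion (21.5 to 33.4) in the cells where Lck was 4.83-fold higher. Prkcq, a kinase downstream of the receptor, was at 0 in this library.

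Genes of immature thymocytes (Ptcra, Rag1, Rag2, Dntt, Arpp21, Ccr9 and Cd1d1) were summed beside genes of mature, circulating T cells (Klf2, S1pr1, Ccr7, Il7r and Ms4a4b). The immature genes summed to 94.3, 45.4, 25.7 and 51.0 CPM in maternal cells and to 39.0, 76.5, 450 and 104 CPM in recipient cells. Rag1, Rag2 and Dntt are also used by B-cell precursors, and Cd1d1 outside the thymus. Ccr9 and Cd1d1 made over 50% of the sum in 6 of the 8 libraries, with 93.1% and 98.6% in the maternal and recipient uninjected ones. Without these 2, left out after their values were seen, the sums were 6.53, 18.2, 4.72 and 28.3 CPM in maternal cells and 0.558, 36.4, 292 and 48.4 CPM in recipient cells. The uninjected library of maternal cells then stood below rather than above the DC-depleted pIUT library. All 7 were above 3 counts in the 3 transplanted recipient libraries, 6 were in maternal DC-depleted pIUT cells, and 3 to 5 were in the other 4. Dntt, which adds bases at the junctions of rearranged receptors, was at 100 CPM in recipient DC control pIUT and 8.26 CPM in recipient DC-depleted pIUT cells, 12.1-fold lower (11.0 to 13.4). Rag1, of the recombinase, was at 48.0 and 7.86 CPM. Of the 7, 0 were higher and 6 lower in recipient cells after DC depletion (24.1% and 14.4% of all genes), with a median log2 of -2.34 beside -2.04 for the 10 TCR signalling genes.

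The mature genes summed to 1791, 176, 153 and 14.6 CPM in maternal cells and to 396, 283, 258 and 271 CPM in recipient cells. Klf2 alone was at 942, 116, 112 and 6.63 CPM in maternal cells and at 324, 255, 81.3 and 99.2 CPM in recipient cells. It made most of the sum in all uninjected and mIUT libraries. After recipient DC control pIUT 3 of the 5 were higher and 1, Klf2, was lower than in uninjected pups (52.2% and 20.2% of all genes). Their median log2 was 1.10, although the sum was lower. S1pr1 and Il7r had 2 and 7 counts in the recipient uninjected library. In recipient cells 0 were higher and 0 lower by 2-fold after DC depletion (median log2 0.19, with 24.1% and 14.4% of all genes), and their sums in the 2 pIUT libraries were close. In maternal cells, of 4 that could be compared, 1 was higher and 3 were lower (37.5% and 36.4% of all genes). Klf2, a factor of quiescent circulating T cells, was at 112 CPM in maternal DC control pIUT and 6.63 CPM in maternal DC-depleted pIUT cells, 16.8-fold lower (14.7 to 19.3). S1pr1, a receptor used to leave the thymus, was 4.60-fold lower (3.75 to 5.70), and Ms4a4b 9.52-fold lower (7.70 to 11.9). Ccr7, a homing receptor, was the higher gene, from 67 counts against 0, at least 34.2-fold. Klf2 is also used by B cells and myeloid cells, and 2 genes of this list (Il7r and Ms4a4b) are among the accessory genes too.

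**Figure D4:**
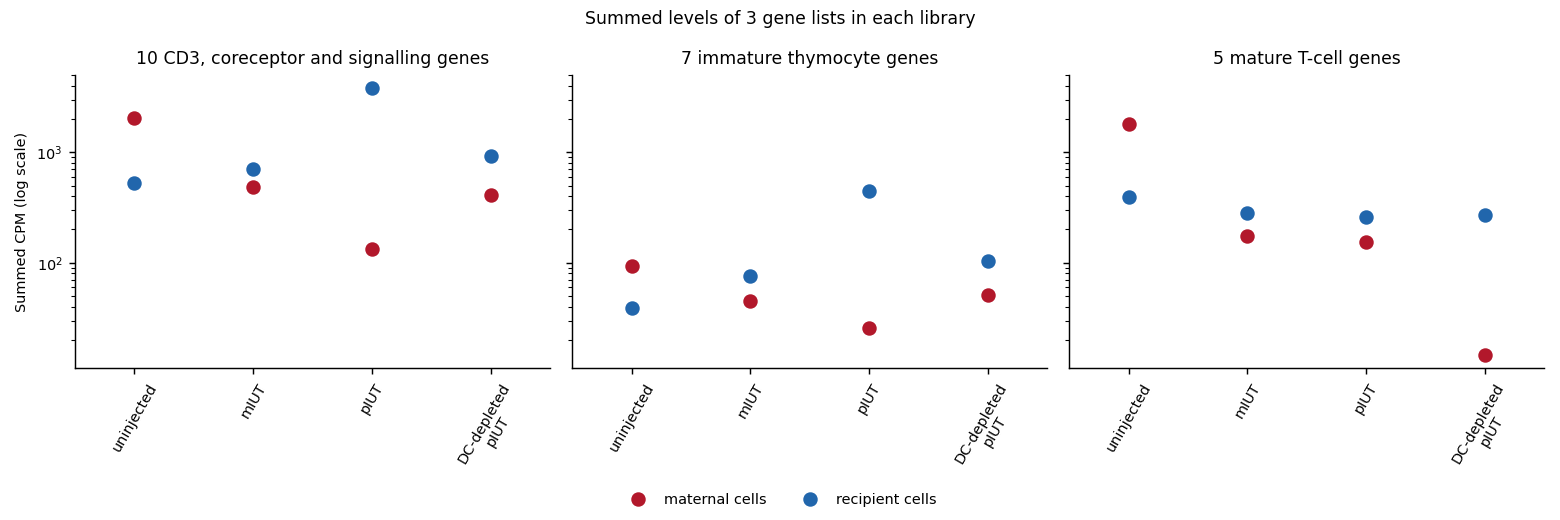
Summed CPM (log axis) of the 10 CD3, coreceptor and signalling genes, of 7 immature thymocyte genes and of 5 mature T-cell genes in the 8 libraries, with maternal cells in red and recipient cells in blue. The immature genes were highest in recipient pIUT cells at 450 CPM, and the mature genes were lowest in maternal DC-depleted pIUT cells at 14.6 CPM.

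Markers of the other blood and tissue cells moved between the libraries as well. The 8 B-cell markers summed to 7279, 346, 49.7 and 37.6 CPM in maternal cells and 1283, 75.7, 227 and 292 CPM in recipient cells. NK-cell markers (8 genes, of which Tyrobp is also myeloid) ranged from 155 to 1395 CPM in maternal and from 581 to 2830 CPM in recipient libraries. Tyrobp made most of the sum in all 8 libraries, so these ranges largely follow it. Without Tyrobp the sums were 573, 44.9, 5.44 and 3.60 CPM in maternal cells and 36.9, 5.68, 107 and 143 CPM in recipient cells. Between recipient DC control and DC-depleted pIUT, NK markers were 669 and 581 CPM with Tyrobp and 107 and 143 CPM without it, so Tyrobp sets the direction of the sum. Macrophage markers were 366 and 1265 CPM, erythroid markers 29428 and 19414 CPM and hepatocyte markers 76.5 and 1323 CPM. The recipient uninjected library held 4292 CPM of macrophage, 92580 CPM of erythroid and 14232 CPM of hepatocyte markers. Of the 8 markers in each list, 7 were lower after recipient DC control pIUT than in that library (20.2% of all genes), with median log2 of -3.67, -2.98 and -8.54, where 9 of the 10 TCR signalling genes were higher. Between maternal DC control and DC-depleted pIUT, erythroid markers were 100351 and 146484 CPM, or 12.9% and 12.5% of all counts, and hepatocyte markers were 227 and 702 CPM. Conventional DC markers summed to 0 to 144 CPM, and all 8 were at 0 in maternal mIUT cells. Their part in the differences of the 10 genes was not tested.

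Rearranged TCRs, read by the authors from the same libraries with MiXCR, gave a second measure of T-cell RNA. Scaled to the library in the same way as CPM (RPM), there were 596, 98.1, 34.7 and 140 RPM of clonotype reads in maternal cells and 207, 91.2, 909 and 181 RPM in recipient cells. The highest and the lowest library were the same as for the 10 genes. Set against the counts of the 10 genes, there were 13 to 38.8 TCR reads per 100, with the fewest in recipient mIUT cells and the most in recipient uninjected cells. The reads came from very different numbers of clonotypes. Maternal mIUT, maternal DC control pIUT and recipient uninjected libraries had 22, 17 and 37 TCR clonotypes, against 438 to 4895 in the other 5. These 3 libraries are among those in which Cd5, Cd247, Cd4 or Zap70 had 0 to 3 counts.

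TRA reads were 31.2%, 13.5%, 17.8% and 2.89% of the TRA and TRB reads in maternal cells and 30.0%, 13.9%, 8.99% and 18.7% in recipient cells. The maternal DC-depleted pIUT library was lowest by this measure too (2.41% to 3.43%), from 127 TRA reads in 17 clonotypes against 4268 TRB reads in 427. The orders of the TRA share and of the Trac share of constant-gene counts differed elsewhere. Recipient DC-depleted pIUT cells had a lower Trac share than maternal mIUT cells (5.05% and 14.8%) but a higher TRA share (18.7% and 13.5%).

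**Figure D5:**
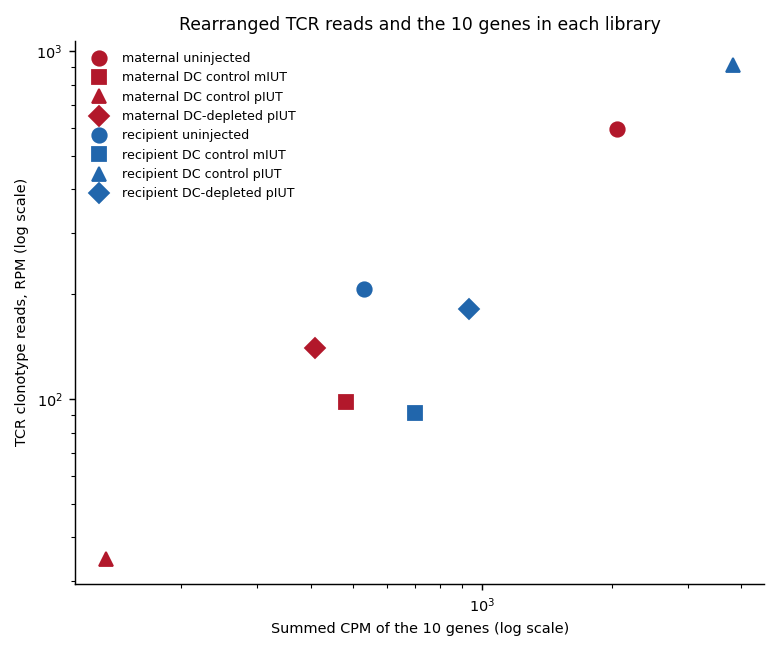
TCR clonotype reads in RPM (log axis) against the summed CPM of the 10 genes (log axis), 1 point for each of the 8 libraries, with maternal cells in red and recipient cells in blue and treatments by shape. Recipient DC control pIUT cells are at the top right (3828 CPM and 909 RPM) and maternal DC control pIUT cells at the bottom left (134 CPM and 34.7 RPM).

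Likeness between genes was measured as Pearson's r of log2(CPM + 1) with the mean of the 10 genes over the 8 libraries, for 10384 genes with a mean of at least 5 CPM. This is a description over points that share libraries and depth. The most similar gene outside the 10 was Lat (r = 0.99), followed by Fam169b and Spg7 (0.96 each), Sit1 (0.94), Trbc2 (0.93) and Izumo1r (0.92), and then by Psmb8, Rps6kb2, Slamf6 and Smarcd2 (0.91 each). Lat was at 153, 19.2, 7.63 and 23.7 CPM in maternal cells and at 34.4, 31.4, 327 and 51.5 CPM in recipient cells. Of the 10 themselves, which enter the mean, Cd3g followed it most closely (0.98), then Cd3e (0.95) and Cd247 (0.94), and Cd4 (0.75), Zap70 (0.73) and Cd3d (0.67) least.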

How the data were processed

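RNA was measured in 8 pooled libraries, 1 per group, sorted from 1-week-old pups. The authors' table, as its name says, holds salmon estimated counts per gene, deposited without normalization, and 8.64% of its values are not whole, while the methods name featureCounts. The deposited MiXCR tables hold clone counts, the reads the authors assigned to each clonotype. GRCm39, bcl2fastq and StringTie are named in the submitters' processing notes. Estimated counts were rounded. Gene names came from GENCODE vM39, which matched 97.99% of the identifiers, so positions are those of GRCm39. 0 columns were left without a sample.

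Libraries were scaled by TMM in edgeR 4.0.16 (R 4.3.3), and log2 fold changes came from its exact test at the study's dispersion of 0.4, with no p-value, since there were no replicates. An edgeR quasi-likelihood test with additive origin and treatment terms, for genes kept by filterByExpr, was added after seeing the data. For the log2 fold changes and the numbers of different genes, counts of 3 or fewer were set to 3, genes at or under 3 in both libraries were left out, and a gene was counted as different at 2-fold. Printed folds are ratios of CPM, from 1 to 3 counts as counted with their interval, and from 0 as a bound at 3 counts. Intervals (95%, exact Poisson or Clopper-Pearson, SciPy 1.17.1) cover counting error only, and reads without molecular identifiers are not independent molecules. The fold script and the added test were tried on simulated data. The data simulated for the added test held no interaction of origin and treatment, so this trial does not show how the test performs where they interact. The added test had 3 residual degrees of freedom. The 10 genes, the 10 most similar genes (by r, at a mean of at least 5 CPM) and the gene lists were named by rule; the genes and lists were chosen with earlier results of these data known. Alternatives were DESeq2 1.42.0 size factors, library size alone, a prior count of 2, a minimum of 10 counts in both libraries, another denominator for ratios, and 2 other counts of clonotypes. Proteins were not analysed here, and 3 genes of the lists are not reported here and were left out of the list sums and counts.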

Additional observations from a re-analysis of the deposited data

Results flagged for a closer look

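Genes that differed at least 2-fold in opposite directions in maternal and recipient cells under the same contrast drew attention. There were 9 of 10 between DC control pIUT and uninjected pups, all lower in maternal and higher in recipient cells, with Cd4 as the exception. Among all genes compared in both origins the share was 23.8%. With at least 10 counts in both libraries there were 6 (Cd3d, Cd3e, Cd3g, Cd8a, Cd8b1 and Lck) in place of 9. There were 4 of 9 between DC-depleted and DC control pIUT (Cd3d, Cd247, Cd5 and Lck), all higher in maternal and lower in recipient cells, beside 13.2% of all genes. Between DC-depleted pIUT and uninjected pups there were 4 of 10 (Cd3d, Cd247, Lck and Zap70), beside 22.1% of all genes. Between DC control mIUT and uninjected pups there were 2 of 10 (Cd247 and Zap70), beside 25.8% of all genes, and by library size alone the 2 were Cd3d and Zap70. Between DC control pIUT and mIUT there were 5 of 9 (Cd3e, Cd3g, Cd247, Cd4 and Lck), beside 12.2% of all genes, but 2 of 9 by library size alone. With 1 library per group the difference between origins in these contrasts was not tested, and contrasts that share a library are not independent.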

How the results depend on the processing

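The test paired by treatment (maternal and recipient libraries of the same pups) called 0 of the 10 genes for origin, and without that block it also called 0. No treatment contrast within an origin could be paired, because each group had 1 library. None of the called differences of the 10 genes changed direction under the alternatives. With a prior count of 2 each count of higher or lower genes stayed within 1.5 times its value. TMM factors from 6 libraries (without maternal mIUT and recipient uninjected, chosen after seeing the data) gave 14 of these counts, all within 1.5 times, and could not be applied to the comparisons that use those 2 libraries. By library size alone, 1 gene was lower in recipient DC-depleted pIUT than uninjected cells, 3 were lower in maternal pIUT than mIUT cells, and 2 were higher and 2 lower in maternal than recipient mIUT cells. With DESeq2 size factors 2 were lower in that last comparison. With at least 10 counts in both libraries it was also 2, and maternal DC-depleted pIUT cells exceeded DC control pIUT cells in 2 genes, and 0 higher in maternal pIUT than mIUT cells, since fewer genes could be compared. Genes opposite between origins numbered 2 for pIUT against mIUT by library size alone. They numbered 1 for mIUT against uninjected with DESeq2 size factors. With at least 10 counts in both libraries they numbered 1 for that contrast, 2 for DC-depleted against DC control pIUT and 3 for pIUT against mIUT. Over all 10 genes as denominator in place of CD3, 2 genes had a higher ratio in maternal mIUT than uninjected cells. Productive clonotypes alone gave 559, 89.4 and 132 RPM of TCR reads in maternal uninjected, mIUT and DC-depleted pIUT cells, and 188, 81.6, 842 and 163 in recipient uninjected, mIUT, pIUT and DC-depleted pIUT cells. A clone count of at least 2 gave 898 and 176 in the last 2. The median of all genes moved by scaling, for example from 0.00 (TMM) to 0.35 (library size) in maternal pIUT over uninjected cells. Depth limits a count of 0 to 0.0547 to 0.105 CPM by library, and the lack of replicates limits every comparison.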
